A study of Mus musculus with 8 samples.

Results

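The mitochondrial ribosomal proteins are the nuclear-encoded proteins of the ribosome inside mitochondria. Their genes were taken here as every gene symbol in the deposited tables that starts with Mrpl or Mrps followed by a digit. The rule found 77 of 18790 named genes, of which 48 carry a large-subunit symbol (Mrpl) and 29 a small-subunit symbol (Mrps). All 77 had counts in all 8 libraries and all 77 passed the filter on low counts, as 11965 genes did.

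The libraries came from the marrow of femurs of C57BL/6 mice, which received no treatment and all carry the Csf1r-EGFP transgene, in which the promoter of Csf1r, a receptor gene of monocytes and macrophages, drives green fluorescent protein. The mice's age was not given in the sources used here. The CD11b+ sort took cells positive for CD11b, F4/80 and VCAM1, negative for Ly6G and low for the reporter, and the CD11b- sort took cells positive for F4/80, VCAM1 and the reporter that lack CD11b. Each had 4 biological replicates, and RNA was sequenced with SmartSeq2, which copies whole transcripts into cDNA and does not mark strand. Gene counts summed to 36604660 to 47951234 per CD11b+ library and to 27462607 to 35160747 per CD11b- library, and 3 counts were worth 0.0626 to 0.109 CPM.

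Every mitochondrial ribosome translates a small set of messages, all encoded by mitochondrial DNA, into membrane subunits of the respiratory chain and ATP synthase. Its large subunit (39S) joins amino acids and releases the chain through an exit tunnel, and its small subunit (28S) holds the message and decodes it. Many of its proteins descend from bacterial ribosomal proteins and many others exist only in mitochondria. In marrow, developing red cells depend on mitochondria for heme synthesis, whereas mature neutrophils rely largely on glycolysis.

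The sorts differed widely in cell type markers, although the labels put "macrophage" in quotation marks for both. All 15 erythroid markers passed the test as lower in CD11b+ libraries, with summed CPM (gene counts scaled to a common library total) of 826 to 1529 against 42848 to 57493. Primary granule markers were higher for 6 of 6 tested (60105 to 87107 CPM against 479 to 6815), neutrophil markers for 8 of 10 (67060 to 94144 against 140 to 733) and eosinophil markers for 6 of 6. B progenitor markers were lower for 7 of 8 tested (53.1 to 130 CPM against 1136 to 2231) and cell cycle genes for 14 of 16 (6716 to 7100 against 17725 to 21359). Resident macrophage markers summed to 1156 to 1203 CPM and 608 to 997 CPM, with 4 higher and 2 lower of 16 tested, and no marker was at 0 in all libraries of a sort. The part that these differences have in the results below was not tested, and in bulk samples fewer cells of a type and less RNA per cell cannot be told apart.

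The starts of a few member genes are printed because this family's promoters are known for ETS motifs, bound by GABPA (also called NRF2), and for motifs of NRF1, a regulator of nuclear genes for mitochondria. Mrpl44 and Mrpl33 had the highest fold changes of the large subunit, and Mrpl52 and Mrpl51 were among the members lower in CD11b+. Mrpl52 and Mrpl51 are the 2 with an ETS match among the 5 lower members whose promoter was found. Their windows therefore do not stand for the lower members. Each window runs from 120 bases before to 10 bases after the annotated start, on the + strand, from RefSeq on GRCm38.p6, a later build than the one the submitters list. The positions are chr1:79775898-79776027 for Mrpl44, chr5:31613831-31613960 for Mrpl33, chr14:54426789-54426918 for Mrpl52 and chr6:125192080-125192209 for Mrpl51. Capitals mark the ETS motif CCGGAAG or its reverse complement, and the NRF1 core motif GCATGCGC or its reverse complement.
Mrpl44: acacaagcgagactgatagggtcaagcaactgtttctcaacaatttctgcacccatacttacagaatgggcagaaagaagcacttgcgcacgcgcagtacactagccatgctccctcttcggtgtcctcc
Mrpl33: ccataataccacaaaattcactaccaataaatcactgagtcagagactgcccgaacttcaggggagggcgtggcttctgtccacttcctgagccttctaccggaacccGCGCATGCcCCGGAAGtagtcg
Mrpl52: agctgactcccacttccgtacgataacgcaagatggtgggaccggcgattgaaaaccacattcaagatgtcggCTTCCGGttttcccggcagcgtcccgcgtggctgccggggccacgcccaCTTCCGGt
Mrpl51: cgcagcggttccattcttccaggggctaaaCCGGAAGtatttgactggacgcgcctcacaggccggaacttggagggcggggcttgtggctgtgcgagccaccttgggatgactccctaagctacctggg
The Mrpl33 window held 1 match of each motif, the Mrpl52 window 2 ETS matches, the Mrpl51 window 1 ETS match and the Mrpl44 window neither.

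A promoter of 250 bases before to 50 after the start was found for 68 of the 77 members, and both strands were searched. The ETS motif CCGGAAG was in 25 of them (36.8%), against 20.8% of 9159 promoters of tested genes and 9.93% of 27025 promoters in all. The NRF1 core GCATGCGC was in 8 (11.8%), against 6.15% and 3.05%, and the YY1 motif AAGATGGCG was also in 8 (11.8%), against 3.79% and 1.64%. The general motifs gave another picture: CCAAT was in 27 (39.7%, against 43.2% of tested genes), the GC box GGGCGG in 34 (50%, against 67.3%) and the TATA box TATAAA in 5 (7.35%, against 8.75%). Among members that passed the test described next, the ETS motif was in 3 of 7 higher ones and 2 of 5 lower ones with a promoter in the table. A match describes letters and not a bound site.

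Single members of the family differed between the sorts in both directions, most of them by less than 2-fold. With edgeR's quasi-likelihood test on counts, at a Benjamini-Hochberg adjusted p of 0.05 over all 11965 genes tested, 8 members were higher in CD11b+ libraries and 6 were lower, and 63 did not pass. That is 18.2% of the family, against 29.7% of all genes tested (14.6% higher and 15% lower), so members passed the test at a smaller share than tested genes in general. Among the 2430 tested genes within the members' middle range of abundance the share was 38.4%. Members higher in CD11b+ were Mrpl44, Mrpl33, Mrpl19, Mrpl45, Mrpl17, Mrpl24, Mrps15 and Mrps16. Those lower were Mrpl52, Mrpl49, Mrpl38, Mrpl51, Mrpl28 and Mrps30.

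Fold changes in the family were small for this pair of sorts. Their median size, whatever the direction, was 0.29 on the log2 scale, against 0.84 for all tested genes and 0.64 for the tested genes of like abundance. At least a 2-fold difference was fitted for 8 of 77 members (10.4%), against 44.3% of tested genes. The libraries of the sorts did not overlap in CPM for 20 members (9 with CD11b+ above, 11 with CD11b+ below, 26.0% in all), against 36.4% of tested genes (18.1% above, 18.4% below). Members also varied little between replicates: the median coefficient of variation was 17.6% in each sort, against 29.02% in CD11b+ and 40.6% in CD11b- over all tested genes, and 21.4% and 30.3% over those of like abundance.

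**Figure D1:**
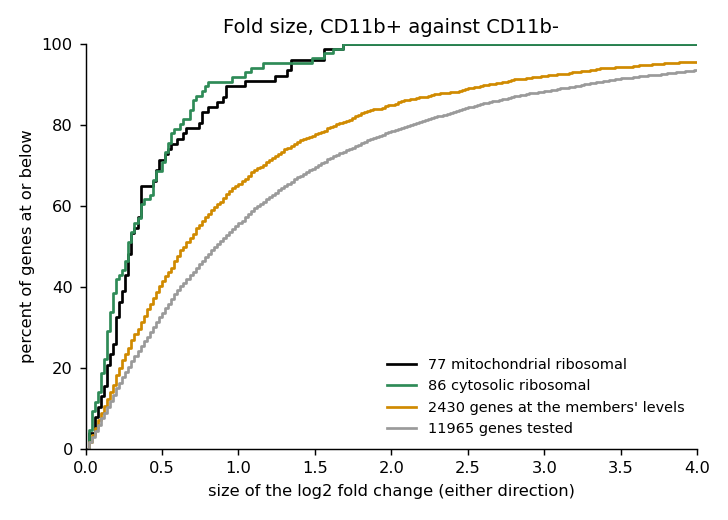
Size of the fitted log2 fold change between CD11b+ and CD11b- libraries (x axis, either direction, up to 4) against the percent of genes at or below that size (y axis), for the 77 members, 86 cytosolic ribosomal protein genes, 2430 tested genes at the members' middle levels and all 11965 tested genes. The member curve climbs beside the cytosolic one and well left of both wider sets.

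Of the 63 members that did not pass the test, 48 had a 95% interval of the fold change that stayed within 2-fold in either direction (30 of the large and 18 of the small subunit). For the other 15 the interval reached beyond 2-fold, with bounds as far as -2.75 and 2.96 on the log2 scale, so for them a difference of more than 2-fold is not excluded by the interval. The lowest in abundance were among the least certain: Mrpl23 averaged 2.41 CPM and 2.61 CPM in CD11b+ and CD11b- libraries, and its log2 fold change of -0.07 had a standard error (SE) of 0.78.

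The subunits leaned apart by a small amount. The median log2 fold change, CD11b+ over CD11b-, was -0.18 over the 48 large-subunit genes (17 positive, 31 negative) and 0.11 over the 29 small-subunit genes (16 positive, 13 negative), beside -0.10 for the whole family and -0.01 for all tested genes. The middle 50% of fold changes ran from -0.34 to 0.21 in the large and from -0.19 to 0.30 in the small subunit, so they overlapped broadly. The large subunit had 6 higher and 5 lower members (22.9% of 48) and the small subunit 2 higher and 1 lower (10.3% of 29). Both shares lay below the 29.7% of all tested genes. Without CD11b- replicates 1 and 2, the CD11b- libraries with most of the granule gene Mpo, the medians were -0.20 and 0.19.

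Some symbols do not give the protein's place. Mrps30 (mL65) and Mrps18a (mL66) sit in the large subunit of the mammalian mitochondrial ribosome, and Mrps36 is a component of the alpha-ketoglutarate dehydrogenase complex, an enzyme of the citric acid cycle. Counted by place, the large subunit had 50 members with 6 higher, 6 lower and a median of -0.18. The small subunit had 26 members with 2 higher, 0 lower and a median of 0.14. Thus the only lower gene with a small-subunit symbol, Mrps30, encodes a large-subunit protein. Over all tested genes 14.6% were higher and 15% lower. The counts by place hold Mrpl and Mrps symbols only. Of 6 subunit proteins under other symbols, 0 were higher and 2 lower. The lower ones included Dap3, a small-subunit protein, with an adjusted p of 0.00472 in the edgeR test.

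**Figure D2:**
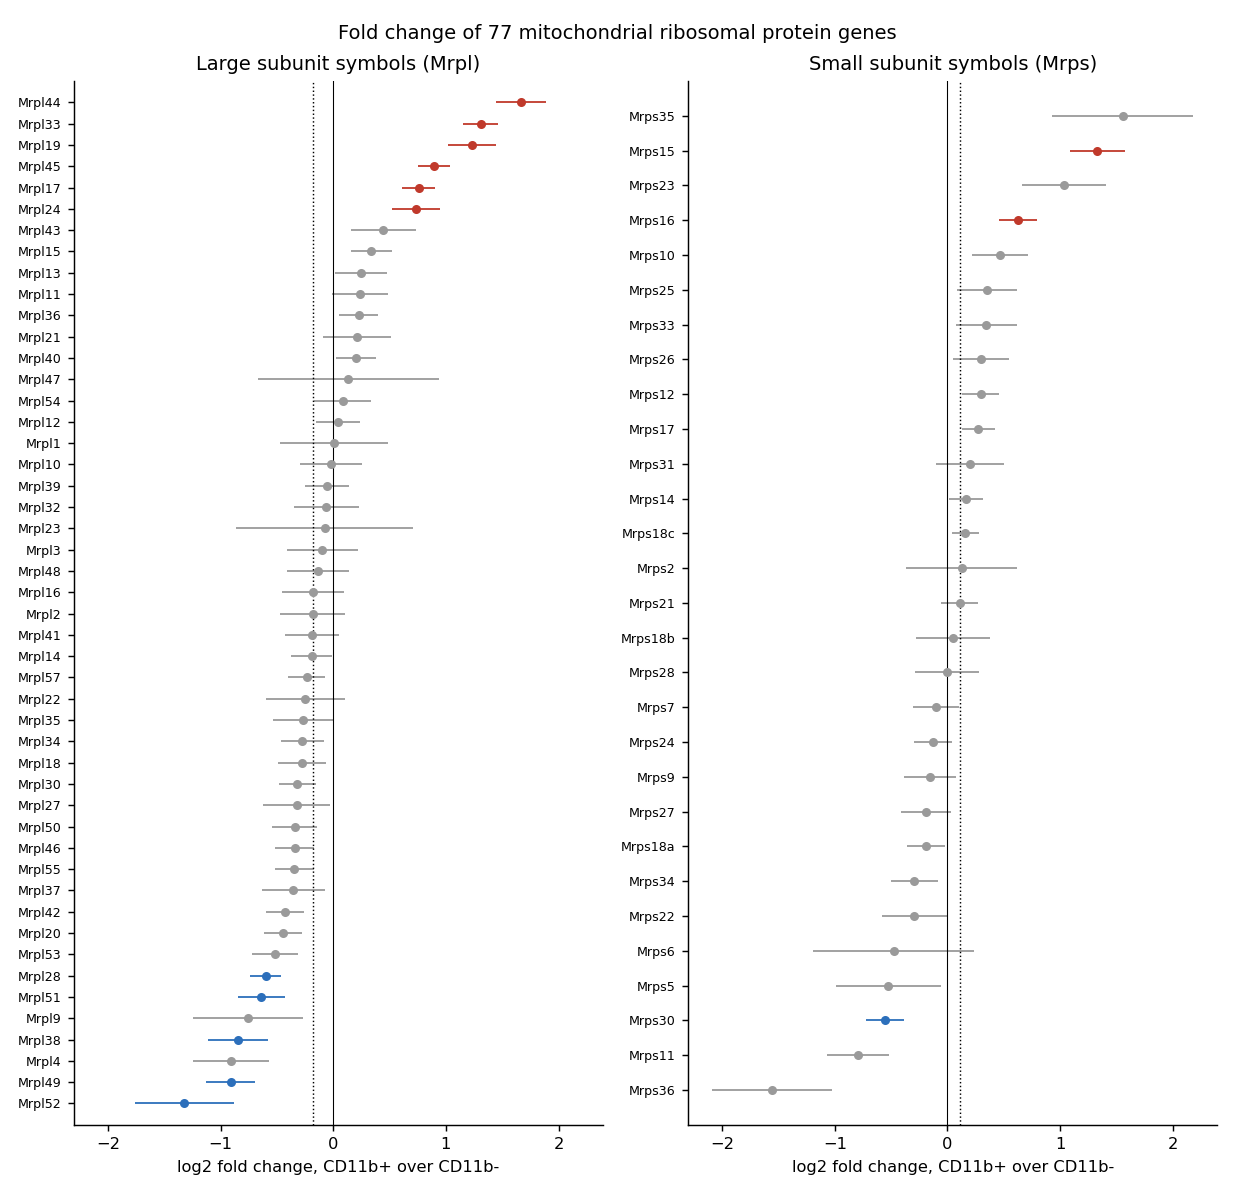
Log2 fold change of each member, CD11b+ over CD11b- (x axis; points with bars of 1 SE), by symbol, in red and blue for genes higher and lower at the adjusted threshold and grey for the rest, with the subunit's median dotted. The large subunit's median lies left of 0 at -0.18 and the small subunit's right of 0 at 0.11, and wide bars belong to members with few counts.

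Summed over each subunit, mean levels differed less between the sorts than between CD11b+ replicates. The Mrpl means differed by -157 CPM (CD11b+ minus CD11b-), against SDs of 371 in CD11b+ and 88.4 in CD11b- libraries. The 48 Mrpl genes summed to 2969, 2600, 2823 and 3474 CPM in CD11b+ replicates 1 to 4, and to 3178, 2999, 3122 and 3194 CPM in CD11b- replicates 1 to 4. The 29 Mrps genes summed to 1610, 1461, 1625 and 1854 CPM in CD11b+ and to 1698, 1576, 1450 and 1552 CPM in CD11b- libraries. Both sums overlapped between the sorts, with the highest and the lowest Mrpl sum both in CD11b+ libraries. All 77 together took 0.406% to 0.533% of counts in CD11b+ and 0.457% to 0.488% in CD11b- libraries.

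The ratio of large to small sums, in which library scaling cancels, was 1.84, 1.78, 1.74 and 1.87 in CD11b+ replicates and 1.87, 1.90, 2.15 and 2.06 in CD11b- replicates. The means were 1.81 ± 0.0622 and 2.00 ± 0.132 (SD, n = 4 each), and the ranges met at CD11b+ replicate 4 and CD11b- replicate 1. Counted by place, the ratio was 2.09, 2.09, 2.02 and 2.15 in CD11b+ and 2.31, 2.36, 2.60 and 2.52 in CD11b- libraries. By place, every CD11b+ library therefore lay below every CD11b- library, with means of 2.09 ± 0.0554 and 2.45 ± 0.134 (SD, n = 4 each). On the log2 scale the ratio was lower in CD11b+ by symbol (-0.14) and by place (-0.23), and by symbol without the most abundant member of each subunit (-0.09). No test was run on these ratios, which are scores over the members.

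**Figure D3:**
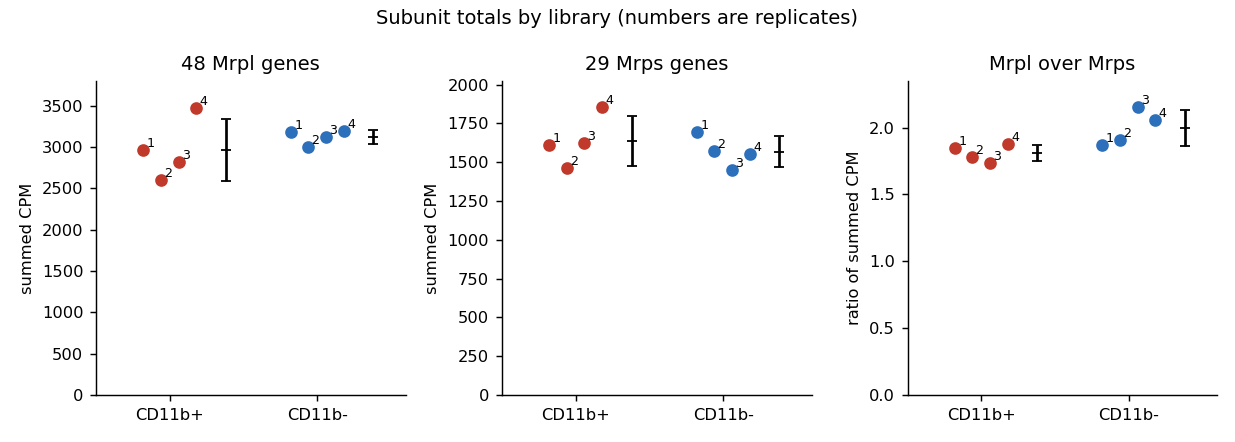
Summed CPM of the 48 Mrpl genes (left), of the 29 Mrps genes (middle) and their ratio (right) in each library, numbered by replicate, with the mean and SD of each sort as bars; axes start at 0. The sums overlap, and the ratio is between 1.74 and 1.87 in CD11b+ and between 1.87 and 2.15 in CD11b- libraries.

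The list of 8 genes for the tunnel exit was drawn up with earlier results of these data known. Among all tested genes 14.6% were higher in CD11b+. Of the large-subunit genes, 4 of the 6 higher in CD11b+ encode proteins that ring the exit of the tunnel. Mrpl44, an RNase III-like protein there, was at 70.1, 84.4, 94.4 and 116 CPM in CD11b+ replicates 1 to 4 and at 29.1, 32.7, 21.3 and 35.7 CPM in CD11b- replicates 1 to 4. Every CD11b+ library was above every CD11b- library, a 3.17-fold difference (log2 1.67, SE 0.22, adjusted p = 0.000297). Mrpl45, which docks the ribosome to the inner membrane, was at 189, 185, 170 and 170 CPM against 111, 94.5, 78.6 and 113 CPM. Its libraries did not overlap either, at 1.86-fold (log2 0.89, SE 0.14, adjusted p = 0.000839). Mrpl17, the homologue of bacterial L17, had 163, 130, 148 and 165 CPM against 94.6, 83.4, 100 and 88.7 CPM. It was higher in all 4 CD11b+ libraries, at 1.69-fold (log2 0.76, SE 0.15, adjusted p = 0.00344).

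Mrpl24, the homologue of bacterial L24, had 88.7, 58.8, 76.7 and 80.6 CPM in CD11b+ and 61.5, 49.8, 41.7 and 35.6 CPM in CD11b- libraries. CD11b+ replicate 2 lay below CD11b- replicate 1, so the sorts overlapped, and the difference was 1.66-fold (log2 0.73, SE 0.22, adjusted p = 0.0285). Leaving out any 1 of CD11b+ replicates 1, 3 and 4 or CD11b- replicates 3 and 4 left Mrpl24 short of the threshold, with adjusted p up to 0.0824. It also fell short with limma (adjusted p = 0.0547). As a list, the 8 tunnel exit genes held 4 higher and 0 lower members, against 14.6% higher and 15% lower among all tested genes. These 8 genes were listed with earlier results of these data known. Their median log2 fold change was 0.43, beside -0.18 for the large subunit and -0.01 for all tested genes. Fitted log2 changes of the other 4 were 0.13 for Mrpl47 (SE 0.80), -0.06 for Mrpl39 (SE 0.20), -0.07 for Mrpl23 and -0.25 for Mrpl22. For Mrpl39 the 95% interval ran from -0.50 to 0.39.

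The remaining higher genes of the large subunit, Mrpl33 and Mrpl19, also encode homologues of bacterial proteins. Mrpl33 was at 137, 127, 141 and 175 CPM in the CD11b+ sort, and at 60.2, 59.3, 51.3 and 70.2 CPM in CD11b- libraries. The sorts did not overlap, and the difference was 2.48-fold (log2 1.31, SE 0.15, adjusted p = 0.000150). Mrpl19 had 62.0, 73.1, 68.6 and 101 CPM against 30.1, 37.7, 35.2 and 29.5 CPM. It was 2.35-fold higher (log2 1.23, SE 0.22, adjusted p = 0.00185), with all 4 CD11b+ libraries above.

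Of the 5 lower members of the large subunit by symbol, 4 encode proteins that exist only in mitochondria: Mrpl52, Mrpl49, Mrpl38 and Mrpl51. They are 4 of 19 such members, a small count, against 15% lower among all tested genes. Of the 4, only Mrpl49 passed in each of the 18 fits described below. Mrpl52 was at 4.81, 5.62, 4.38 and 7.20 CPM in the CD11b+ sort, and at 9.75, 14.6, 15.7 and 16.02 CPM in CD11b- libraries. The sorts did not overlap, and it was 2.50-fold lower in CD11b+ (log2 -1.32, SE 0.44, adjusted p = 0.0483). Mrpl49 was at 48.4, 55.5, 45.2 and 47.5 CPM against 85.1, 68.1, 101 and 125 CPM. It was 1.88-fold lower (log2 -0.91, SE 0.22, adjusted p = 0.0101), and the CD11b- libraries, although all above, spread more than the CD11b+ ones. Mrpl51 had 39.2, 30.9, 43.1 and 49.2 CPM against 61.5, 56.0, 71.8 and 69.4 CPM, without overlap, at 1.56-fold lower (log2 -0.64, SE 0.21, adjusted p = 0.0437).

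Mrpl28, the homologue of bacterial L28, was at 180, 159, 149 and 192 CPM in the CD11b+ sort, and at 268, 259, 277 and 252 CPM in CD11b- libraries. All 4 CD11b+ libraries were below, at 1.52-fold (log2 -0.60, SE 0.14, adjusted p = 0.00763). Mrpl38, a protein of the central protuberance, which touches the head of the small subunit, lies outside the rule for naming genes and was named after its values were seen. It was at 19.5, 28.2, 21.2 and 24.5 CPM against 55.5, 47.8, 39.5 and 30.2 CPM. The libraries did not overlap, and the difference was 1.80-fold (log2 -0.85, SE 0.27, adjusted p = 0.0383). Mrps30, by place a large-subunit protein, had 69.0, 91.1, 80.5 and 105 CPM against 154, 138, 113 and 120 CPM. It was 1.47-fold lower in CD11b+ (log2 -0.56, SE 0.17, adjusted p = 0.0313), without overlap.

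The lower calls were less firm than the higher ones. Of the 14 members that passed, 6 higher (Mrpl44, Mrps15, Mrpl33, Mrpl19, Mrpl45, Mrpl17) and 2 lower (Mrpl49, Mrpl28) passed in each of the 18 fits run, including each of the 8 that left out a library. Over the same fits the adjusted p reached 0.126 for Mrpl52, 0.112 for Mrpl51, 0.254 for Mrpl38 and 0.203 for Mrps30. Mrpl52, Mrpl51, Mrpl38 and Mrps30 were also the 4 lower members that missed the threshold without CD11b- replicates 1 and 2 together, and they missed it with library totals taken without the 20 most abundant genes; 8 higher members passed in both of those fits.

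In the small subunit the higher members were Mrps15 and Mrps16. Mrps15, the homologue of bacterial S15, was at 104, 59.3, 106 and 111 CPM in the CD11b+ sort, and at 42.8, 37.6, 43.5 and 30.6 CPM in CD11b- libraries. CD11b+ replicate 2 stood below the other 3 CD11b+ libraries but above every CD11b- library, and the difference was 2.51-fold (log2 1.33, SE 0.24, adjusted p = 0.00229). Mrps16, the homologue of bacterial S16, had 65.8, 68.9, 70.0 and 86.3 CPM against 50.6, 53.8, 45.4 and 43.7 CPM. It was 1.54-fold higher (log2 0.63, SE 0.17, adjusted p = 0.0194), and without CD11b+ replicate 4 its adjusted p was 0.0549.

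The largest and smallest fold changes of the Mrps symbols did not pass the test. Mrps35, a protein found only in mitochondria, was at 18.1, 7.90, 18.8 and 22.2 CPM in the CD11b+ sort, and at 11.6, 4.38, 1.48 and 6.52 CPM in CD11b- libraries. CD11b+ replicate 2 fell within the CD11b- range, and the log2 fold change of 1.56 had an SE of 0.63 (adjusted p = 0.0959). Mrps36 was at 3.09, 3.70, 2.38 and 2.95 CPM against 9.89, 9.70, 6.98 and 10.3 CPM. All CD11b+ libraries of Mrps36 were below all CD11b- ones, and the log2 fold change of -1.56 had an SE of 0.53 (adjusted p = 0.0526). Mrps36 passed in 4 of the 18 alternative fits, among them DESeq2 (adjusted p = 0.00154) and limma (adjusted p = 0.00127). The filter at a CPM of at least 10 in 4 libraries left it untested. It passed in 0 of the 8 fits that left out a library. Other Mrps genes near the threshold were Mrps11 (log2 -0.79, adjusted p = 0.0556) and Mrps23 (log2 1.04, adjusted p = 0.0634), each without overlap between the sorts.

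**Figure D4:**
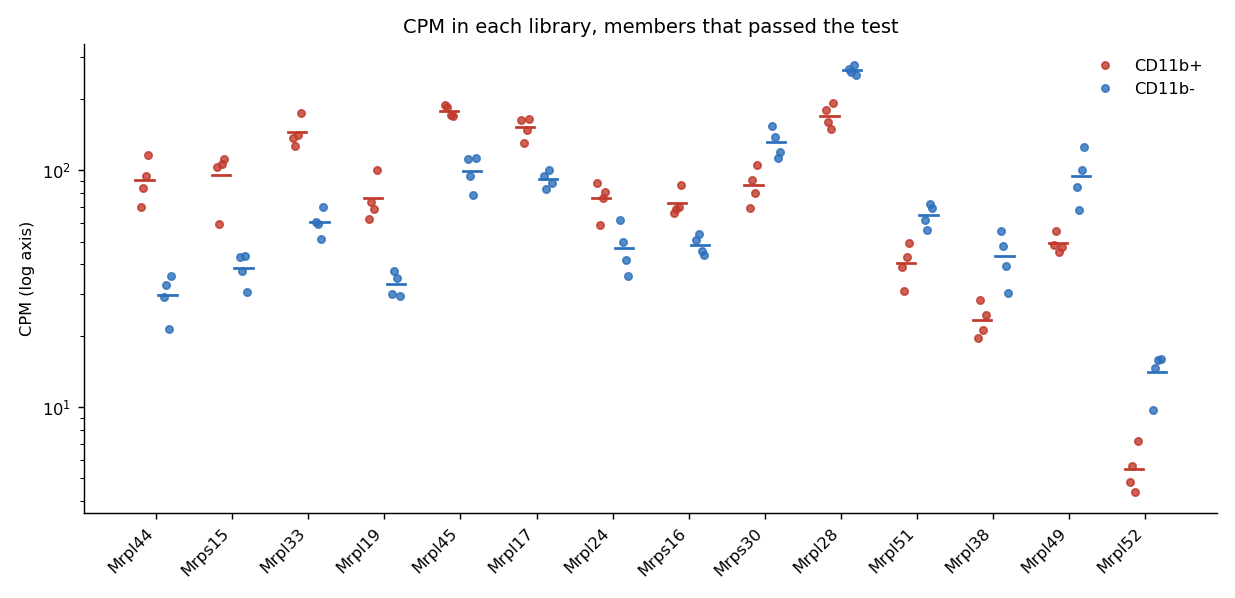
CPM in each library (y axis, log scale) for the 14 members that passed the test, ordered by fold change; points are libraries and lines are means of the 4 libraries of each sort. The sorts separate in 13 of the 14 and overlap in Mrpl24, and Mrps15 has a single low CD11b+ library at 59.3 CPM.

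The paralogs Mrps18a, Mrps18b and Mrps18c resemble bacterial S18 but occupy different sites, and only Mrps18c, which takes the bacterial site, is counted below as a bacterial homologue. None of the 3 passed. Mrps18c was at 209, 196, 188 and 201 CPM in the CD11b+ sort, and at 212, 172, 167 and 184 CPM in CD11b- libraries, with a log2 fold change of 0.16 (95% interval -0.11 to 0.42). Mrps18a was at 54.7, 52.1, 68.7 and 56.1 CPM against 64.4, 69.9, 60.6 and 76.8 CPM (log2 -0.19, interval -0.56 to 0.19). Mrps18b was at 18.6, 18.3, 13.3 and 19.6 CPM against 23.7, 16.4, 12.4 and 17.4 CPM (log2 0.05, interval -0.69 to 0.79). The sorts overlapped for all 3 paralogs.

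By origin, with subunits taken by symbol, the counts were uneven but small. Among all tested genes 14.6% were higher, 15% were lower and 18.4% had CD11b+ libraries wholly below. Large-subunit homologues of bacterial proteins had 4 higher and 1 lower of 29 (median log2 -0.07). Large-subunit proteins found only in mitochondria had 2 higher and 4 lower of 19 (median -0.34), with CD11b+ libraries wholly below for 7 of the 19. In the small subunit, bacterial homologues had 2 higher and 0 lower of 16 (median 0.12), and genes for mitochondrial proteins 0 higher and 1 lower of 13 (median 0.05). Those 13 include Mrps30, the 1 lower gene, with Mrps18a and Mrps36, none of which is a small-subunit protein by place. The L7/L12 stalk, which recruits translation factors, had 0 of 5 genes past the test and a median of 0.04. Its member Mrpl53 had a log2 fold change of -0.52 with every CD11b+ library below (adjusted p = 0.0909), and the other 4 overlapped. In the central protuberance Mrpl38 was the 1 gene of 7 to pass, the median was -0.32 and the fitted change was negative for 6 of 7, the exception being Mrpl40 (log2 0.20).

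To ask which members departed from the rest of the family, each gene was also tested with libraries scaled on the members' own median ratio in place of all genes. The members' level relative to all genes, which that scaling removes, was 0.998, 0.913, 0.983 and 1.13 in CD11b+ and 1.03, 0.984, 1.04 and 1.02 in CD11b- libraries. On that scale 8 members were higher and 5 lower, against 29.1% of all genes (14.6% and 14.4%). They were the members named above with the exception of Mrpl38 (adjusted p = 0.0540). Mrpl42, a large-subunit protein found only in mitochondria, came closest of the others (adjusted p = 0.0514), and Mrpl4, a bacterial L4 homologue with a log2 fold change of -0.91 in the all-gene fit, had 0.0709. Mrpl4 was at 22.3, 36.1, 32.95 and 49.1 CPM in the CD11b+ sort, and at 48.4, 65.8, 102 and 49.5 CPM in CD11b- libraries. CD11b+ replicate 4 reached into the range of the CD11b- libraries of Mrpl4, which themselves spread widely.

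Levels between genes were compared per kilobase of the GENCODE principal transcript, as the mean CPM per kb over the sorts. The median was 31.2 CPM per kb (36.6 for the large and 29.1 for the small subunit), and the middle 50% of members lay between 16.5 and 70.0. The highest were Mrps18c at 299.5, Mrpl42 at 282, Mrpl33 at 215 and Mrpl28 at 203 CPM per kb, and the lowest was Mrpl47 at 2.09. This order depends on the transcript taken, the longest where several ranked alike. Mrpl47 (3364 bases) averaged 7.24 CPM in CD11b+ and 6.85 CPM in CD11b- libraries. Mrpl23 (692 bases) averaged 2.41 CPM and 2.61 CPM. Mrpl42 was at 172, 126, 141 and 191 CPM in the CD11b+ sort, and at 245, 196, 231 and 199 CPM in CD11b- libraries, below in every CD11b+ library without passing the all-gene test (log2 -0.43, adjusted p = 0.0839). Next highest of the small subunit were Mrps21 at 132 and Mrps24 at 90.0 CPM per kb. Mrps21, a bacterial S21 homologue, had 62.6, 56.8, 68.3 and 76.1 CPM against 60.5, 63.1, 56.9 and 71.2 CPM. Mrps24, a bacterial S3 homologue, had 73.2, 82.6, 76.5 and 105 CPM against 115, 86.5, 83.6 and 94.0 CPM. Both overlapped between the sorts, with log2 fold changes of 0.11 (SE 0.16) and -0.13 (SE 0.17). Per kilobase Mrpl33 was second to Mrps18c in CD11b+ libraries (303 and 311 CPM per kb), whereas in CD11b- libraries Mrpl42 was highest (327) and Mrpl33 was at 126.

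Some members share bases with other genes. In GENCODE M21, 20 members overlapped another gene over more than 10% of their transcript, and 18 had a pseudogene copy of at least 95% identity over at least 200 bases. Of the 14 that passed, Mrpl19 (39.2% with Gcfc2), Mrpl24 (43.6% with Rrnad1) and Mrps30 (18.1% with B430218F22Rik) overlapped a gene on the other strand and Mrpl33 (37.0% with Gm43809) one on its own strand. Of the members named above that did not pass, Mrpl53 (100% with Gm42688) and Mrps18c (27.3% with Gm43511) overlapped a gene on their own strand. Mrps18b (59.1% with Gm16279), Mrps11 (16.4% with Mrpl46) and Mrpl47 (13.4% with Actl6a) overlapped one on the other strand. Without strand the reads of such pairs cannot be told apart. The partners of Mrpl19 and Mrpl24 were low: Gcfc2 averaged 9.26 and 6.04 CPM in CD11b+ and CD11b- libraries, and Rrnad1 20.1 and 18.6 CPM. Of the members described above, Mrpl51, Mrpl42, Mrpl23, Mrpl22, Mrps18b and Mrps21 have 1 such copy each, Mrps16 has 2 and Mrps36 has 4, so their counts are uncertain to that extent.

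Other genes of mitochondrial gene expression were counted in 5 lists. Of their 85 tested genes, 7 were higher and 7 lower in CD11b+ (16.5%), a share below the 29.7% of all tested genes (14.6% higher and 15% lower). Subunit proteins with other symbols had 0 higher and 2 lower of 6. Dap3, a GTP-binding small-subunit protein, was at 43.6, 33.9, 59.2 and 48.7 CPM in the CD11b+ sort, and at 105, 120, 93.5 and 77.2 CPM in CD11b- libraries, 2.08-fold lower without overlap (adjusted p = 0.00472). Gadd45gip1, a large-subunit protein, was 1.72-fold lower (adjusted p = 0.0430). Translation factors had 1 of 14 past the test, Mtrf1l, a release factor, at 2.45-fold lower (adjusted p = 0.0150).

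Assembly and rRNA modification genes had 1 higher and 2 lower of 25, against 14.6% higher and 15% lower among all tested genes. Rbfa, which matures the small subunit, was at 87.7, 87.8, 106 and 113 CPM in the CD11b+ sort, and at 46.0, 39.1, 31.9 and 37.8 CPM in CD11b- libraries, 2.63-fold higher without overlap (adjusted p = 0.000186). The lower ones were Mrm1, a methyltransferase of the large rRNA (3.32-fold, adjusted p = 0.000912), and Ngrn (1.67-fold, adjusted p = 0.0359). Mitochondrial tRNA synthetases had 1 higher and 2 lower of 20. Aars2, the alanyl enzyme, was at 17.8, 9.82, 12.4 and 8.03 CPM against 0.210, 0.0850, 0.154 and 0.146 CPM, 81.6-fold higher (adjusted p = 0.000127), with CD11b- values near the 0.0853 to 0.109 CPM that 3 counts are worth there. Nars2, the asparaginyl enzyme, was 3.13-fold lower (adjusted p = 0.00816).

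Genes for copying and transcribing mitochondrial DNA had 5 higher and 0 lower of 20: Polg, Mtpap, Ssbp1, Mgme1 and Hsd17b10. Among all tested genes 14.6% were higher and 15% lower. Mtpap, Mgme1 and Hsd17b10 were near the threshold in the edgeR test (adjusted p = 0.0461, 0.0480 and 0.0375). Fitted changes were positive for 11 and negative for 9 of the 20 genes. Ssbp1, the single-strand DNA binding protein of mitochondria, was at 61.8, 56.2, 53.7 and 57.2 CPM in the CD11b+ sort, and at 34.9, 33.1, 29.5 and 35.4 CPM in CD11b- libraries, 1.77-fold higher without overlap (adjusted p = 0.00539). Polg, the DNA polymerase, was 2.09-fold higher (adjusted p = 0.0114). For comparison, cytosolic ribosomal proteins had 1 higher and 2 lower of 86 (3.49%, against 29.7% of all tested genes), with a median log2 fold change of -0.15.

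**Figure D5:**
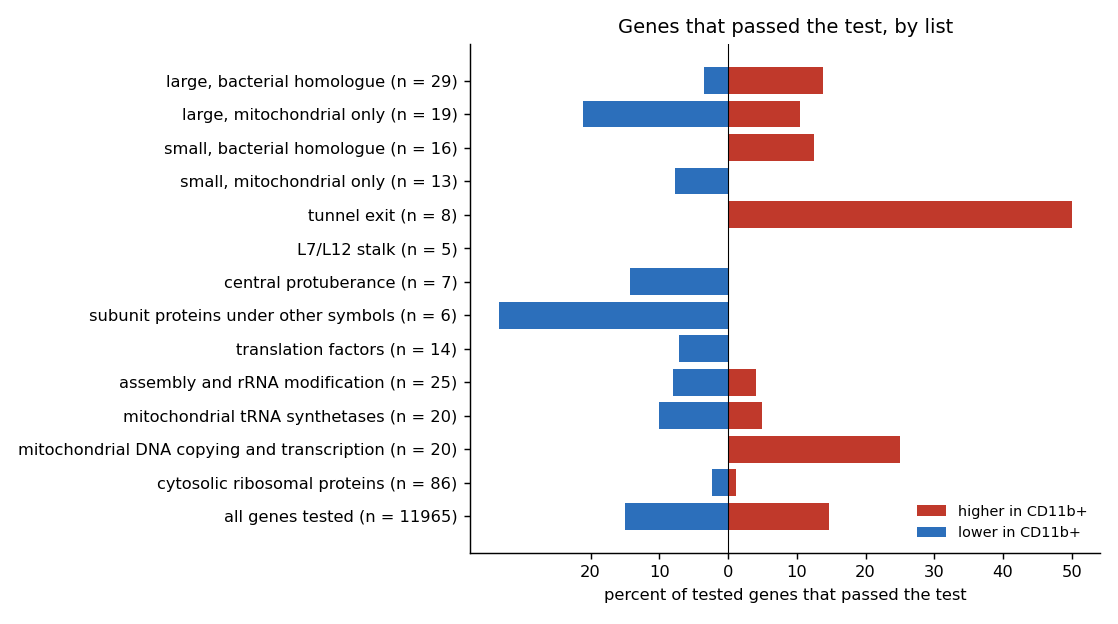
Percent of tested genes in each list that passed the test (x axis), drawn to the right where higher and to the left where lower in CD11b+, with the number of tested genes in brackets. The tunnel exit list reaches 50% to the right from 4 of 8 genes, and the lowest row gives all genes at 14.6% higher and 15% lower.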

How the data were processed

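The deposited files hold whole-number counts per gene symbol for each library and a table of CPM over the 8 libraries; the CPM were the counts over their totals, with a largest difference of 0.0005. The submitters' processing notes list TopHat2, HTSeq 0.10.0, DESeq2 and mm9 without saying what each was used for. The annotation, or how strand and multiple mapping were handled, was not given in the sources used here. Of 18817 rows, 27 without a symbol (0.205% to 0.514% of counts) were left out.

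Counts were fitted on the whole table with edgeR 4.0.16 in R 4.3.3: TMM scaling, filterByExpr (minimum count 10, minimum total 15), quasi-likelihood test, no covariate, and Benjamini-Hochberg adjustment over 11965 genes at 0.05. Fold changes are CD11b+ over CD11b- with a prior count of 0.125, and SE and 95% intervals were derived from the F statistic. A second edgeR fit scaled libraries on the members' median ratio. Lengths, overlaps and copies (blastn 2.17.0) came from GENCODE M21, matched by symbol, and promoters from RefSeq.

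The members and lists were chosen with earlier results of these data known. The rule for genes given by library took the 4 highest and 4 lowest fold changes, up to 12 departing members, the 3 most abundant per kb of each subunit, the Mrps18 paralogs, Mrps30 and Mrps36, which made 22 genes. Mrpl38, Mrpl23, Mrpl53, Mrps11 and Mrps23 were named after their values were seen. Alternatives were limma 3.58.1 on log2(CPM + 1), DESeq2 1.42.0 (with 81 genes left without an adjusted p), other scalings and filters, a replicate block and leaving out each library. Leaving out CD11b- replicates 1 and 2 together, which had the most Mpo, was added after seeing the data. The scripts were tested on simulated counts. The values of 1 gene of the other lists are not reported here.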

Additional observations from a re-analysis of the deposited data

Results flagged for a closer look

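Mrps15 in CD11b+ replicate 2 was at 59.3 CPM, far from the other CD11b+ libraries at 104, 106 and 111 CPM. Its gap to the nearest of them was 0.850 of the group's range, above Dixon's 95% critical value for 4 samples. It was the 1 result set apart in this way among 54 groups of 4 libraries examined, of which chance alone sets apart about 1 in 20. Mrps15 passed the test in every fit that left out a library.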

How the results depend on the processing

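The 8 higher members were 7 with the replicate block, 10 with DESeq2, 7 with limma and 6 to 9 with a library left out. The 6 lower members were 2 with the replicate block, 2 without the CD11b- libraries highest in Mpo, 2 with totals without the 20 most abundant genes, 2 with no filter and 2 to 5 with a library left out, but 9 with DESeq2 and 9 at a CPM of at least 10 in 4 libraries, which kept 72 members. Departing members were 13, and 20 when scaled on Mrps genes, 21 with DESeq2 and 9 to 14 with a library left out. The genes called in the 5 other lists were 10 to 16 against 14. For the lost calls the cause was not tested.

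The large-subunit median stayed below 0, between -0.25 and -0.10 with a library left out and at -0.07 with totals without the 20 most abundant genes. That scaling moved the median of all genes from -0.01 to 0.10. The small-subunit median was 0.22 there and 0.0067 to 0.16 with a library left out, the lowest without CD11b+ replicate 4. The large to small log2 ratio was -0.14, and -0.09 without the most abundant member of each subunit, -0.23 by place, -0.22 without the libraries highest in Mpo and -0.17 to -0.10 with a library left out. Mrps18b changed sign with no scaling (-0.0064), with upper quartile scaling (-0.013) and without CD11b- replicate 3; with a library left out it ran from -0.050 to 0.21.

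Deviations of same-numbered libraries correlated at 0.0022 to 0.043 over genes, and those of differently numbered libraries at -0.0344 to 0.0197. The highest value was that of CD11b+ replicate 4 with CD11b- replicate 4. All were near 0, and with 4 libraries per sort they cannot exclude a pairing by replicate number. Members with few counts, such as Mrpl23 (SE 0.78, coefficient of variation 36.9% in each sort), had some of the largest SEs. The part of depth in this was not tested.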
